A study of Rattus norvegicus with 4 samples.

Results

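The T cell receptor and lineage genes are a set of 32 rat genes that encode chains of the antigen receptor complex, coreceptors, receptor-proximal kinases and adaptors, lineage transcription factors, costimulatory receptors and interleukin receptors. They were taken by name: every non-control probe whose deposited gene name is 1 of the 32 was used, which gave 39 probes among 30367. Of the 32 genes, 29 passed the background filter (both arrays of 1 group, or of both, well above background) and were tested beside 12858 genes in all. Cd28, Cd40lg and Il2ra did not pass that filter and are given as levels and bounds.

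Gene expression was read from 4 one-colour Agilent arrays, 2 of rats injected with liposomes, which are vesicles of lipid, and 2 of rats injected with saline. All rats were male, of the WKAH strain and 8 to 12 weeks old, and spleens were collected after 24 h. Magnetic beads first depleted cells carrying MHC class II (antibody OX-6) and then captured cells carrying CD11b/c (antibody OX-42), so that myeloid cells were enriched rather than purified. From each fraction 0.2 ug of RNA was labelled with Cy3. The liposome and the saline titles both end in exp1 or exp2, written here as number 1 and number 2, and the labels do not say what the number stands for or whether the arrays came from separate animals. The p-values below therefore speak only of the spread among these 4 samples, and that spread may be technical.

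The antigen receptor of a T cell recognises peptide with its variable chains and signals through the CD3 chains and the zeta chain, whose tyrosine motifs are phosphorylated by the kinase LCK. The kinase ZAP70 then binds these motifs and phosphorylates the adaptor LAT, from which calcium and Ras signalling start. In the spleen such cells lie mainly in the white pulp, and resting T cells of the rat carry little MHC class II. CD11b/c, which the second beads bind, is known from myeloid cells and also from natural killer cells and some activated T cells.

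The levels below are scaled intensities: the processed spot intensity after each array was brought to a common 75th percentile, read from the brightest passing probe of a gene. They are compared between arrays for the same probe, or for the same sum of probes. Brightness across probes served only to pick the probe of a gene and the list genes that are named. A difference is given in log2 units, so that 1 unit is a doubling. On each array 61.3% to 66.3% of the 42877 non-control spots were well above background, and none was saturated. The median intensity was 182 and 188 on the liposome arrays, against 175 and 171 on the saline arrays, in the order number 2, number 1. Of the markers of the enriched cells, Lyz2 (lysozyme) was at 134000 and 117000 on liposome 2 and liposome 1, against 137000 and 101000 on saline 2 and saline 1, and 15 of the 16 tested macrophage and monocyte markers were well above background on all 4 arrays. Transcripts of the T cell gene set were measurable beside them: 28 of the 32 genes were well above background on all 4 arrays, 3 on some and Il2ra on none. The genes were taken by name, and the arrays do not show which cells each transcript came from. In RNA from mixed cells, fewer cells of a type and less RNA per cell cannot be told apart.

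The genes are introduced with their promoters, since promoters are the stretch usually compared among genes whose levels move together. Of the 32 genes, 25 matched an entry of RefSeq's promoter table for the build GRCr8. The 25 were not selected by level: they include Foxp3 and Ubash3a, which did not separate by number, and Il2ra, not well above background on any array. The 250 bases before the start of 4 of them are printed 5′ to 3′ on the strand of the gene, and capitals mark the core CAGGAA of ETS family factors or its reverse complement TTCCTG.
Cd3e, chr8:54211771-54212020, minus strand: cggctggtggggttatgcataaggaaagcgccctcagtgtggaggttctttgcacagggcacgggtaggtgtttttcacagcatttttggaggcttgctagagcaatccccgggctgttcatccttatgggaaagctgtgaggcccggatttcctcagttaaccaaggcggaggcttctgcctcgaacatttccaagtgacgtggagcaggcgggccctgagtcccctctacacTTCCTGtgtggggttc
Cd247, chr13:80576019-80576268, plus strand: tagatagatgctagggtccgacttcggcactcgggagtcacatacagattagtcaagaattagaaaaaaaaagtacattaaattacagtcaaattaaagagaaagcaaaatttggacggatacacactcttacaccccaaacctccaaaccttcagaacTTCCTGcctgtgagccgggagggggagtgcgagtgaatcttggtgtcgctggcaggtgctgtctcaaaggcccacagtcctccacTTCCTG
Lck, chr5:147201268-147201517, minus strand: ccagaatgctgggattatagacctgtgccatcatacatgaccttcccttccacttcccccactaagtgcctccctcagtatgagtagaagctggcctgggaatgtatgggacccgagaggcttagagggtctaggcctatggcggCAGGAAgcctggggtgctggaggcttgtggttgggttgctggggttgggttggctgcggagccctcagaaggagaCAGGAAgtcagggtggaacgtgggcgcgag
Zap70, chr9:46485355-46485604, plus strand: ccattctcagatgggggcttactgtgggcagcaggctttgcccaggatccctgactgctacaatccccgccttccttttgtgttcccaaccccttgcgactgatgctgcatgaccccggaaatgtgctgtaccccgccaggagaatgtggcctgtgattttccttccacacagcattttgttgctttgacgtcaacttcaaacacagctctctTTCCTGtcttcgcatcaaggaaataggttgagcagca

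The core CAGGAA on either strand was found in 13 of the 25 upstream regions (52%), against 24.6% of the 27457 regions in the table. Every printed region holds it, so the printed regions do not stand for all 25. Those of Cd3d, Cd2, Tcf7, Gata3 and Cd27, among others, lack it. The RUNX core TGTGGT was found on either strand in 7 (28%, against 14.1%), the TCF/LEF core CTTTGA in 5 (20%, against 13.8%), the E-box CAGCTG in 5 (20%, against 11.9%) and the GATA core AGATAA in 1 (4%, against 10%). Each motif holds 6 letters, matches of different motifs were allowed to overlap, and a match is a string of letters and not a bound site.

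The antigen receptor chains lay higher on the number 2 arrays than on the number 1 arrays in both groups, by 1.87-fold to 3.0-fold. Cd3e, the epsilon chain that forms dimers with the delta and gamma chains, was at 1050 on liposome 2 and 506 on liposome 1, and at 1040 on saline 2 and 401 on saline 1. The number 2 arrays were thus 2.08-fold higher within liposome and 2.60-fold higher within saline, while liposome and saline arrays of the same number lay close. Cd3d, the delta chain, was at 9450 and 5060 on liposome 2 and liposome 1, against 10800 and 4200 on saline 2 and saline 1. Cd3g, the gamma chain, was at 13300 and 7020 on liposome 2 and liposome 1, against 16700 and 6990 on saline 2 and saline 1. For both chains each number 2 array lay above each number 1 array, whatever the injection. Cd247, the zeta chain that carries most of the signalling motifs, was at 5130 and 2330 on liposome 2 and liposome 1, against 7390 and 2460 on saline 2 and saline 1. Its number 2 arrays were 2.20-fold higher within liposome and 3.0-fold within saline.

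The 3 CD3 genes are neighbours. On rn4, the build of the deposited probe positions, the probe of Cd3d at chr8:47936669-47936728 lies 12234 bases from that of Cd3g and 13585 bases from that of Cd3e. Cd247 is on chromosome 13 in GRCr8 and showed the same order of arrays. Across the 4 chains the difference by number, from a limma fit with group and number as terms, was 1.09 to 1.36 log2 units. None passed a Benjamini-Hochberg adjusted p of 0.05 in that fit (Cd3e 1.22 ± 0.13 SE, adjusted p = 0.137).

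Kinases and adaptors next to the receptor had the widest differences by number of any role, with a median of 1.38 log2 units over 8 genes. Lck, the kinase that phosphorylates the receptor's motifs, was at 748 on liposome 2 and 356 on liposome 1, against 1060 on saline 2 and 306 on saline 1. Zap70, the kinase recruited to them, was at 7790 and 3670 on liposome 2 and liposome 1, against 14300 and 4490 on saline 2 and saline 1. Both kinases were thus over 2-fold higher on number 2 within liposome (2.10-fold and 2.13-fold) and over 3-fold within saline (3.45-fold and 3.18-fold). Lat, the membrane adaptor downstream of ZAP70, was at 3530 and 1560 on liposome 2 and liposome 1, against 4880 and 1650 on saline 2 and saline 1. Sh2d1a, the adaptor SAP of SLAM family receptors, was at 733 and 329 on liposome 2 and liposome 1, against 1680 and 476 on saline 2 and saline 1. Of the 29 genes tested Sh2d1a had the largest difference by number (1.49 ± 0.20 SE, limma, adjusted p = 0.167).

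Txk, a Tec family kinase, and Skap1, an adaptor of integrin activation, followed the same order. Txk was at 1650 and 837 on liposome 2 and liposome 1, against 3180 and 1230 on saline 2 and saline 1. Skap1 was at 235 and 121 on liposome 2 and liposome 1, against 263 and 144 on saline 2 and saline 1. For Skap1 the difference by number was of like size in both groups (0.96 within liposome and 0.87 within saline). Trat1, a transmembrane adaptor of the receptor, was at 71.4 and 35.1 on liposome 2 and liposome 1, against 97.1 and 25.9 on saline 2 and saline 1. Its probe was not well above background on saline 1, so the difference within saline is a bound of at least 2.52-fold. Ubash3a, a regulator that dampens receptor signalling, stood apart from this role: 807 and 748 on liposome 2 and liposome 1, against 600 and 566 on saline 2 and saline 1. Its arrays separated by injection and not by number, with differences by number of 0.11 within liposome and 0.08 within saline.

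**Figure D1:**
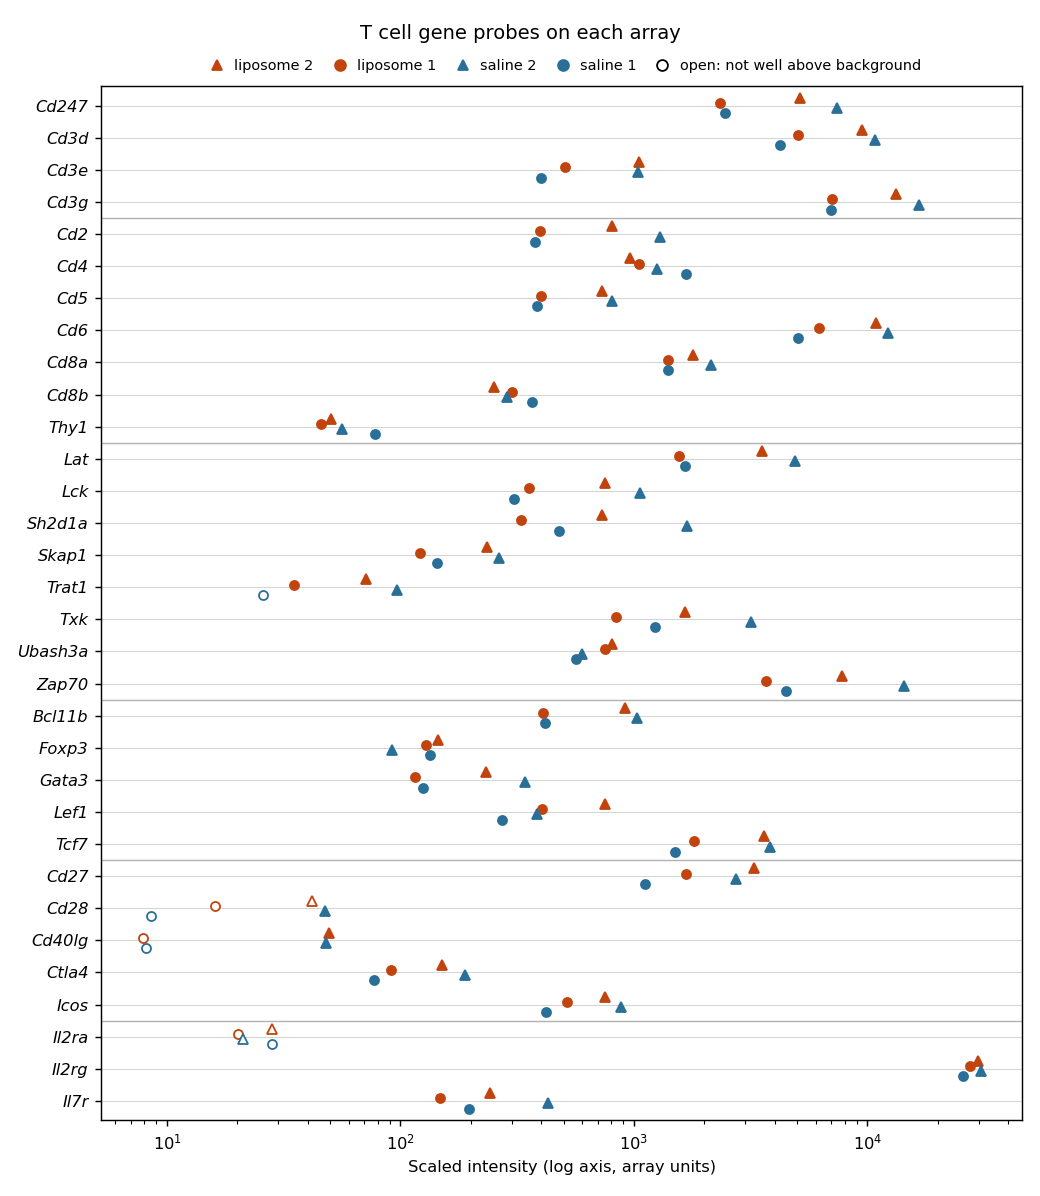
Scaled intensity (log axis, array units) of the 32 T cell receptor and lineage genes on the 4 arrays, liposome in red above saline in blue, triangles for number 2 and circles for number 1, with open symbols where the probe was not well above background. The triangles lie right of the circles for most genes, as for Cd247 (5130 and 7390 against 2330 and 2460). Cd4, Cd8b, Thy1, Foxp3, Ubash3a and Lef1 depart from that order, as does Il2ra, which was not well above background on any array.

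Coreceptors and adhesion receptors were divided. Cd2, the adhesion receptor that binds CD48 in the rat, was at 804 and 395 on liposome 2 and liposome 1, against 1290 and 378 on saline 2 and saline 1. Cd5, a scavenger receptor family member that tunes receptor signalling, was at 729 and 399 on liposome 2 and liposome 1, against 805 and 385 on saline 2 and saline 1. Cd6, its relative and neighbour (73540 bases between their probes on chromosome 1 of rn4), was at 10900 and 6180 on liposome 2 and liposome 1, against 12200 and 5020 on saline 2 and saline 1. These 3 lay higher on both number 2 arrays, by 0.97 to 1.40 log2 units in the fit.

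The coreceptors proper did not share one order. Cd8a, the alpha chain that binds MHC class I, was at 1790 and 1400 on liposome 2 and liposome 1, against 2140 and 1400 on saline 2 and saline 1, a smaller difference by number (0.36 within liposome and 0.61 within saline). Cd8b, the beta chain that marks conventional cytotoxic T cells, was at 252 and 300 on liposome 2 and liposome 1, against 287 and 364 on saline 2 and saline 1. It was the 1 gene of the 29 with both number 2 arrays below both number 1 arrays, although its probe lies 50919 bases from that of Cd8a on chromosome 4 of rn4. Natural killer cells of the rat can carry CD8 as a dimer of alpha chains, without the beta chain. Cd4, the coreceptor for MHC class II, which macrophages of the rat also carry, was at 960 and 1050 on liposome 2 and liposome 1, against 1260 and 1670 on saline 2 and saline 1. Thy1, a surface glycoprotein found in the rat on thymocytes and other cell types rather than on most mature T cells, was at 50.6 and 45.6 on liposome 2 and liposome 1, against 56.2 and 78.1 on saline 2 and saline 1. For both Cd4 and Thy1 each liposome array lay below each saline array.

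Of the 5 transcription factors, 3 followed the title number. Bcl11b, which maintains T cell identity, was at 913 and 407 on liposome 2 and liposome 1, against 1030 and 416 on saline 2 and saline 1. Its difference by number was 1.17 within liposome and 1.31 within saline. In the limma fit it came to 1.24 ± 0.11 (SE), with an adjusted p of 0.109 that was the smallest among the 29 genes. Tcf7, the factor TCF-1 of naive and memory T cells, was at 3620 and 1810 on liposome 2 and liposome 1, against 3810 and 1500 on saline 2 and saline 1. Gata3, which directs early T cell and helper type differentiation, was at 233 and 115 on liposome 2 and liposome 1, against 341 and 125 on saline 2 and saline 1. Both lay at least 1 log2 unit higher on number 2 in each group.

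Lef1, a relative of TCF-1, was at 748 and 405 on liposome 2 and liposome 1, against 386 and 272 on saline 2 and saline 1. Read from its brightest probe, it was higher on number 2 within each group (0.88 and 0.50) and higher on liposome within each number (0.96 within number 2 and 0.57 within number 1). Foxp3, the factor of regulatory T cells, was at 145 and 128 on liposome 2 and liposome 1, against 92.1 and 134 on saline 2 and saline 1. Its 2 groups went opposite ways by number, 0.18 within liposome and -0.54 within saline, and the limma difference by number was -0.18 ± 0.21 (SE, adjusted p = 0.801).

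Costimulatory and inhibitory receptors that passed the filter again lay higher on number 2. Cd27, a receptor of the tumour necrosis factor family on naive T cells, was at 3280 and 1670 on liposome 2 and liposome 1, against 2740 and 1110 on saline 2 and saline 1. Icos, induced on activated T cells, was at 755 and 519 on liposome 2 and liposome 1, against 881 and 419 on saline 2 and saline 1. Ctla4, the inhibitory receptor that competes with CD28, was at 151 and 91.4 on liposome 2 and liposome 1, against 189 and 77.1 on saline 2 and saline 1. In all 3 each number 2 array was above each number 1 array, with fitted differences of 0.81 to 1.14.

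Near the background the same order could be read only as bounds. A bound sets a bright array's level against the higher of the dim array's own value and the lowest signal that was well above background there. Cd40lg, the CD40 ligand of activated helper cells, was at 49.5 and 7.9 on liposome 2 and liposome 1, against 47.9 and 8.15 on saline 2 and saline 1. Its probe was well above background on both number 2 arrays and on neither number 1 array, so number 2 was at least 1.59-fold higher. Cd28, the main costimulatory receptor, was at 41.6 and 16.1 on liposome 2 and liposome 1, against 47.4 and 8.54 on saline 2 and saline 1. Only saline 2 was well above background for Cd28, at least 1.23-fold over saline 1.

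The 2 tested interleukin receptors were unlike each other, with fitted differences by number of 0.92 (Il7r) and 0.18 (Il2rg). Il7r, the receptor of interleukin 7 that sustains naive T cells, was at 241 and 147 on liposome 2 and liposome 1, against 428 and 197 on saline 2 and saline 1, a difference by number of 0.71 within liposome and 1.12 within saline. Il2rg, the common gamma chain, which is also expressed by myeloid, natural killer and B cells, was at 29800 and 27600 on liposome 2 and liposome 1, against 30500 and 25600 on saline 2 and saline 1. Its number 2 arrays were higher by only 0.11 and 0.26 log2 units within liposome and within saline. Il2ra, the alpha chain induced on activated and regulatory T cells, was at 28.3 and 20.1 on liposome 2 and liposome 1, against 21.2 and 28.2 on saline 2 and saline 1, not well above background on any array.

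Counted together, 23 of the 29 tested genes (79.3%) had both number 2 arrays above both number 1 arrays, against 10.3% of the 12858 genes. Cd8b was below, against 12.2% of all genes, and Cd4, Lef1, Foxp3, Thy1 and Ubash3a overlapped. Within both groups the difference had the same sign for 27 genes (93.1%), against 59.4% of all genes, Foxp3 and Thy1 being the exceptions. In 11 genes (37.9%) number 2 was at least 1 log2 unit higher within both groups, against 0.661% of all genes: Cd3e, Cd247, Cd2, Lck, Zap70, Lat, Tcf7, Bcl11b, Gata3, Trat1 and Sh2d1a. The median over the 29 genes was 0.92 within liposome and 1.29 within saline, beside -0.02 and -0.04 over all genes. In 22 of the 29 the difference was larger within saline than within liposome, against 47.9% of all genes, and this contrast of single arrays was not tested.

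The test of the number had 1 residual degree of freedom. No gene of the 12858 was called at an adjusted p of 0.05 by limma (0%), and so none of the 29. At an unadjusted p under 0.05, 23 of the 29 were higher on number 2 (79.3%, against 5.07% of all genes) and 0 were lower, against 4.07% of all genes (9.14% in either direction). With normexp background correction 113 genes were called, 17 of the 29 among them. With a filter for probes well above background on all 4 arrays, 40 genes were called, with Bcl11b as the 1 T cell gene, and with scaling to each array's median 24 were called and none of the 29.

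**Figure D2:**
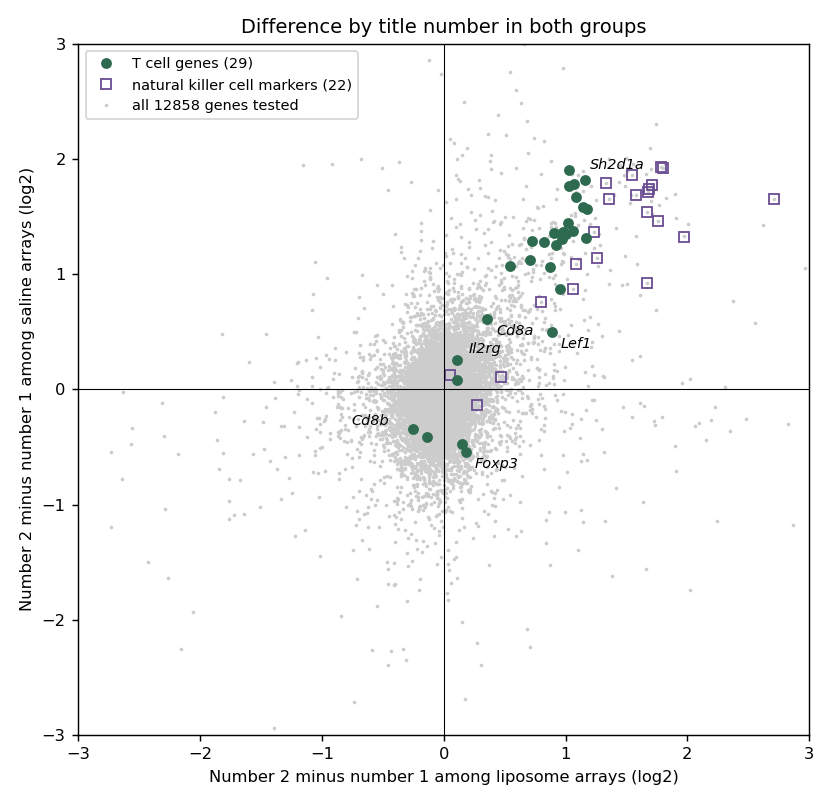
Number 2 minus number 1 (log2) within liposome and within saline for the 29 tested T cell genes (filled green circles, 6 of them named) and 22 natural killer cell markers (open squares), over all 12858 genes in grey, 13 of which lie outside the axes. Most T cell genes sit in the upper right, with Sh2d1a at 1.16 within liposome and 1.82 within saline, while all genes centre near 0 (medians -0.02 and -0.04); the saline value of Trat1 is not exact, as its probe was not well above background on saline 1.

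Liposome against saline gave the other comparison, the one the groups were labelled for. No T cell gene was called, although 8.89% of the 12858 genes were (1143 at adjusted p under 0.05, limma on 2 arrays against 2, with 621 genes or 4.83% higher and 522 genes or 4.06% lower on liposome). At an unadjusted p under 0.05 there were 2 of the 29 (6.9%, against 32.5% of all genes), Cd4 and Ubash3a. Both liposome arrays were above both saline arrays for Lef1 and Ubash3a (2 genes, 6.9%, against 30.4% of all genes) and below them for Cd4 and Thy1 (2 genes, 6.9%, against 35.1%). For the remaining 25 genes the groups overlapped. With no filter on dim probes, no gene of the array was called by limma. With 2 arrays against 2 an exact permutation test of a single gene cannot give a p below 0.333.

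Ubash3a was 1.33-fold higher on liposome, by 0.43 log2 units within number 2 and 0.40 within number 1, and had the smallest adjusted p of the 29 (0.42 ± 0.10 SE, limma, adjusted p = 0.0806). Cd4 differed by -0.39 within number 2 and -0.66 within number 1 (-0.53 ± 0.18 SE, limma, adjusted p = 0.129). Lef1 stood at 0.77 ± 0.36 (SE, limma, adjusted p = 0.225) and Thy1 at -0.46 ± 0.19 (SE, limma, adjusted p = 0.189). None of these differences passed the test in this fit, which leaves out the title number. With the number as a term Lef1 was called higher and Txk lower on liposome, as given in the section on processing.

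The receptor core showed little difference by injection relative to its spread. Cd3e differed by 0.18 ± 0.60 (SE, limma, adjusted p = 0.859), Cd3d by 0.04 ± 0.57 and Cd3g by -0.16 ± 0.54. The SE of the difference had a median of 0.54 over the 29 genes and 0.12 over all genes, and each group holds a number 2 and a number 1 array. Sh2d1a (-0.87 ± 0.75), Txk (-0.75 ± 0.59), Il7r (-0.62 ± 0.47) and Zap70 (-0.58 ± 0.69) had the most negative differences, with adjusted p from limma of 0.4 to 0.587. Cd27 (0.42 ± 0.57) was the most positive after Lef1.

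Set by number, the same genes leaned differently. Within number 2, liposome lay lower than saline in 24 of the 29 genes, with a median of -0.22, and within number 1 in 13, with a median of 0.01. Over all genes the medians were -0.03 and -0.04, and the shares of genes lower within each number are not given here. In the fit on all arrays 19 of the 29 genes were lower on liposome, against 6929 of the 12858 genes. Zap70 stood at -0.87 within number 2 and -0.29 within number 1, Cd2 stood at -0.68 and 0.06, and Lck at -0.50 and 0.22. Cd3d (-0.19 and 0.27) also differed in sign. Trat1 stood at -0.44 within number 2, and within number 1 it has no settled sign, since saline 1 was not well above background. It enters the counts and medians by its measured values. The sign was the same in both numbers for 16 of the 29 genes, against 78.2% of all genes. The median over the 29 in the fit on all arrays was -0.12, and it was 0.31 without liposome 1, -0.48 without liposome 2, -0.64 without saline 1 and 0.48 without saline 2. Leaving out 1 array also changed the number of genes called among all 12858, to 0 without liposome 1, 0 without liposome 2, 499 without saline 1 and 372 without saline 2.

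**Figure D3:**
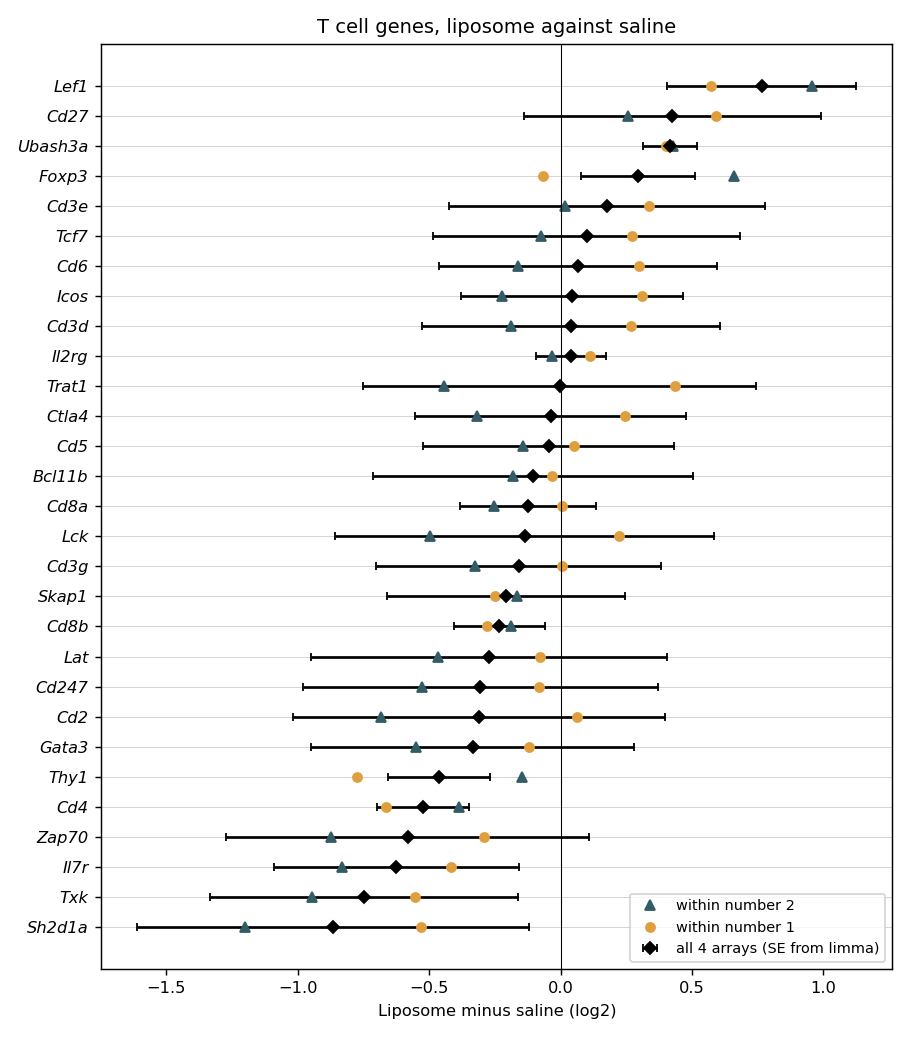
Liposome minus saline (log2) for the 29 tested T cell genes, with triangles for number 2 arrays, circles for number 1 arrays and diamonds with the SE from limma for all 4 arrays. Lef1 and Ubash3a lie right of 0 and Cd4 and Thy1 left of it at both numbers, while for Lck the numbers lie on opposite sides (-0.50 and 0.22). The number 1 point of Trat1 rests on an array where its probe was not well above background.

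The other genes of the pathway were read from a list of 55 symbols, of which 39 were tested. Their median difference by number was 0.26 within liposome and 0.27 within saline, so the list as a whole stood nearer to all genes than the 29 did. At an unadjusted p under 0.05, 16 of the 39 were higher on number 2 and 0 lower (limma, against 5.07% and 4.07% of all genes), and 13 had both number 2 arrays above both number 1 arrays (against 10.3% of all genes). Tcrb, a gene for the receptor's beta chain, was at 303 and 146 on liposome 2 and liposome 1, against 522 and 142 on saline 2 and saline 1. It was picked for mention after its values were seen. As for the CD3 chains, each number 2 array lay above each number 1 array.

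The 4 brightest genes of that list differed by number to unlike extents. Ptprc, the phosphatase CD45 of all leukocytes, was at 31500 and 30000 on liposome 2 and liposome 1, against 37100 and 40100 on saline 2 and saline 1. Nfatc3, a calcium-regulated transcription factor, had differences by number of -0.12 within liposome and 0.09 within saline. S1pr1, the receptor for lymphocyte exit into blood, had 0.24 and 0.42, and Cd7, a surface receptor of T and natural killer cells, had 0.48 and 0.59. Of these 4, only Cd7 had both number 2 arrays above both number 1 arrays. By injection 1 gene of the 39 fell and none rose (limma, adjusted p under 0.05, against 4.06% and 4.83% of all genes): Klf2, a transcription factor that keeps T cells quiescent and is also made by myeloid cells and endothelium. It was at 4300 and 3450 on liposome 2 and liposome 1, against 8710 and 7630 on saline 2 and saline 1 (-1.08 ± 0.16 SE, limma, adjusted p = 0.0361).

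Most markers of another cell type also lay higher on the number 2 arrays. Natural killer cell markers had a median difference by number of 1.56 within liposome and 1.5 within saline over 22 tested genes, 18 of which had both number 2 arrays above both number 1 arrays (against 10.3% of all genes). Gzmm, granzyme M, a protease of cytotoxic granules, was at 14300 and 4770 on liposome 2 and liposome 1, against 32900 and 10200 on saline 2 and saline 1. Tbx21, the factor T-bet and the brightest gene on that list, hardly differed, with 0.05 within liposome and 0.12 within saline. The summed scaled level of the natural killer list was 109560 and 62856 on liposome 2 and liposome 1, against 208600 and 92487 on saline 2 and saline 1. That of the 29 T cell genes was 99922 and 65246 on liposome 2 and liposome 1, against 120420 and 62069 on saline 2 and saline 1. A single bright probe that differs little by number carries much of each sum. Without Tbx21 the natural killer sum was 69891 and 24490 on liposome 2 and liposome 1, against 166240 and 53553 on saline 2 and saline 1. Without Il2rg the T cell sum was 70089 and 37626 on liposome 2 and liposome 1, against 89873 and 36477 on saline 2 and saline 1. Both sums without the bright probe were computed after seeing the data. All 22 natural killer genes were well above background on all 4 arrays, and their part in the T cell result was not tested.

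The differences by injection were tested gene by gene and not between lists. The natural killer list had a median of -1.21 within number 2 and -1.25 within number 1, where the T cell genes had -0.22 and 0.01. In the limma fit without the title number 0 of the 22 natural killer genes were called (against 8.89% of all genes). In that fit 1 had an unadjusted p under 0.05 (against 32.5% of all genes). With the number as a term 17 of the 22 were called lower, where 988 of all 12858 genes were called lower and 828 higher. B cell markers, 13 genes, were all lower on number 2 within liposome, by -1.02 to -0.05 with a median of -0.36. Within saline they ranged from -0.37 to 0.38, with a median of -0.17. Cd79b, a chain of the B cell receptor, had -0.36 within liposome and 0.11 within saline. Macrophage and monocyte markers had medians of -0.06 within liposome and -0.36 within saline over 16 genes, and neutrophil markers 0.12 and -0.11 over 9. The medians of erythroid markers were 0.09 and 0.01 over 7, and those of dendritic cell markers -0.07 and -0.19 over 6. The brightest genes of these lists were Lyz2 and Cd68 for macrophages, S100a9 and S100a8 for neutrophils, Hba-a1 and Hbb for erythroid cells, and Tcf4 and Clec10a for dendritic cells. For those 8 genes the difference by number, fitted over both groups, ranged from -0.19 (Cd68) to 0.32 (Lyz2).

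**Figure D4:**
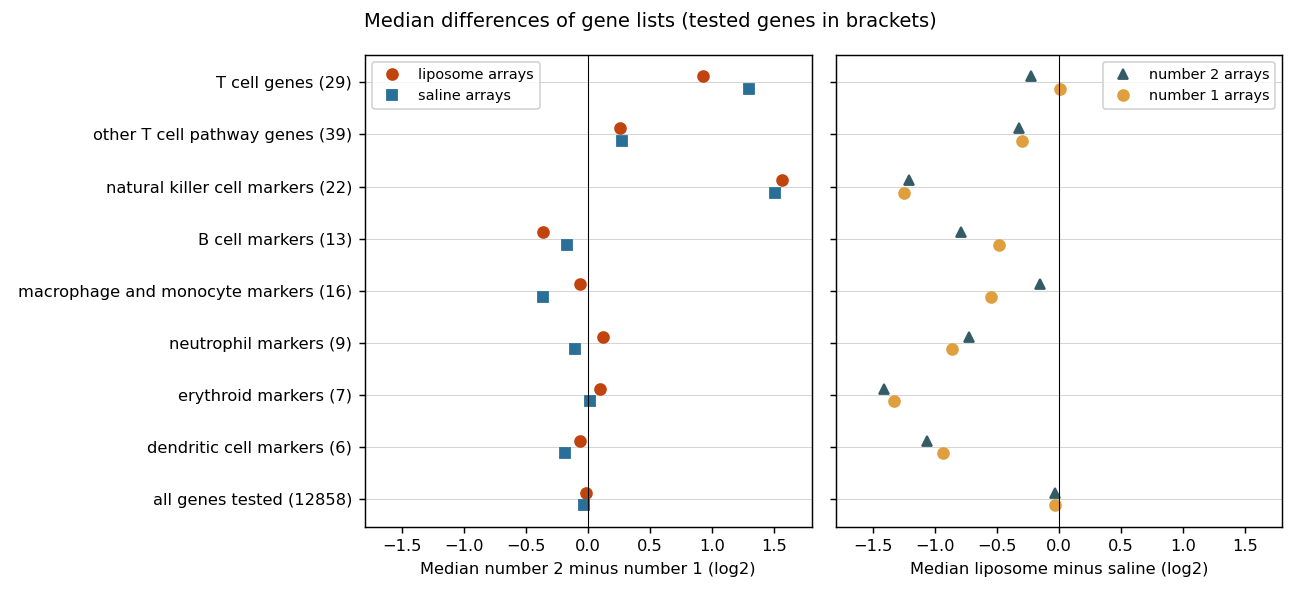
Median differences (log2) of the T cell genes, the other T cell pathway genes and 6 marker lists, with the number of tested genes in brackets. On the left, number 2 minus number 1 lies above 0.9 for the T cell genes and the natural killer list within liposome and within saline, and on the right, liposome minus saline within number 2 and within number 1 is near -1.2 for the natural killer list and -0.22 and 0.01 for the T cell genes.

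Several probes were available for 5 genes and did not always give the same difference. The printed pairs are those on which the reading of Cd6 and Lef1 turns, given 5′ to 3′ as the array design lists them, with positions on rn4. For Lef1 capitals mark the 4 bases at which the overlapping 52 bases differ.
Cd6 probe A_64_P121267, chr1:213291685-213291744, minus strand: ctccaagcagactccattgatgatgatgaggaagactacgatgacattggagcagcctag
Cd6 probe A_64_P144168, chr1:213294375-213294434, minus strand: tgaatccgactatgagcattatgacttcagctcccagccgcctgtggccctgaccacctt
Lef1 probe A_64_P052007, chr2:228659738-228659797, plus strand: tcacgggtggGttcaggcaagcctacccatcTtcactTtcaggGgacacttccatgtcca
Lef1 probe A_64_P166158, chr2:228659730-228659789, plus strand: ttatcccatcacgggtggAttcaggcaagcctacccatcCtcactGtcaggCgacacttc

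For Cd6, probe A_64_P121267 was at 405 and 197 on liposome 2 and liposome 1, against 402 and 180 on saline 2 and saline 1, a difference by number of 1.04 and 1.16, close to the 0.82 and 1.28 of the probe used for the gene. Probe A_64_P144168, further 5′ in the gene, was at 743 and 642 on liposome 2 and liposome 1, against 645 and 608 on saline 2 and saline 1, a difference of only 0.21 and 0.09. All 3 Cd6 probes thus had both number 2 arrays above both number 1 arrays. At A_64_P144168 this rested on a narrow gap, 645 on saline 2 against 642 on liposome 1.

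For Lef1, the 2 printed probes differ by G11A, T32C, T38G and G44C, counted from 1 at the 5′ end of A_64_P052007, with the base of that probe first and that of A_64_P166158 last. A_64_P052007 was higher on liposome by 0.79 within number 2 and 0.48 within number 1, and A_64_P166158 by 0.80 and 0.04. A_64_P052007 was well above background on only 3 of the 4 arrays, so its differences are not all exact. The probe used for the gene gave 0.96 and 0.57. By measured values all 3 Lef1 probes were thus higher on liposome within number 2, and within number 1 the size depended on the probe. By number, A_64_P052007 differed by 0.55 within liposome and 0.25 within saline, and A_64_P166158 by 0.72 and -0.04. The difference of 0.50 within saline on the probe used for the gene was therefore not shared by A_64_P166158. Of the other genes, the second Ctla4 probe went against the first within number 1 (-0.73 against 0.25), and the second Il7r probe was lower on liposome as the first was (-0.64 within number 2 and -0.60 within number 1). By number the second Il7r probe differed by 0.38 within liposome and 0.43 within saline, less than the first. Its numbers overlapped, with 143 on liposome 2 and 166 on saline 1. The count of genes with both number 2 arrays above both number 1 arrays thus depends on the probe for Il7r. The second Il2rg probe, at 88.3 to 103 on the 4 arrays, differed by number by -0.07 within liposome and 0.04 within saline. Its numbers overlapped too, with 88.3 on liposome 2 and 100 on saline 1, so the count also depends on the probe for Il2rg.

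**Figure D5:**
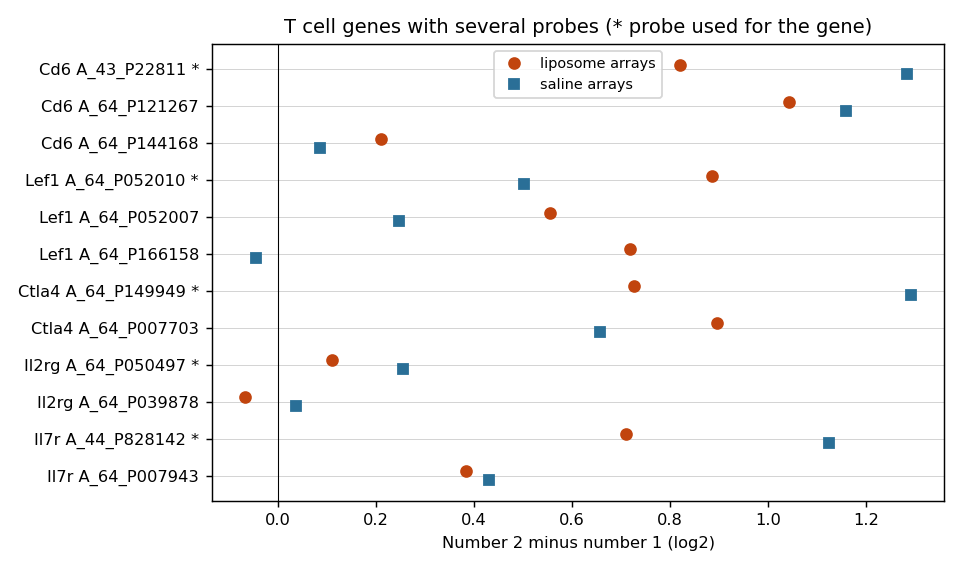
Number 2 minus number 1 (log2) for each probe of the 5 T cell genes with several probes, within liposome in red and within saline in blue, an asterisk marking the probe used for the gene. Cd6 probe A_64_P144168 (0.21 and 0.09) lies near 0 while the other Cd6 probes lie between 0.82 and 1.28.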

How the data were processed

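Expression was measured on 4 one-colour arrays of 60-base probes, 2 liposome and 2 saline. Per the file headers, the deposited processed intensity is on a linear scale, corrected for background and for spatial trends one array at a time and not scaled between arrays. Per the submitters' processing notes, the scanner software was Agilent Feature Extraction 10.7.3.1. The mean and background intensities, also deposited by the authors, served 1 alternative.

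Processed intensity was set to log2 and centred on each array's 75th percentile. Controls and outlier-marked spots were dropped, and repeated spots of a probe were averaged. Probes were named by accession through RefSeq's gene table (17972), by the deposited name (8181) or by the T cell gene name (39), and 4175 stayed unnamed. A gene was tested if its probe was well above background on both liposome arrays or both saline arrays, and its brightest passing probe was used, so 12858 genes were tested. Of 1834 genes with several passing probes, only those of the T cell genes are compared here. limma 3.58.1 in R 4.3.3 (lmFit, eBayes) tested liposome against saline without other terms, and number 2 against number 1 with the group as a term, with Benjamini-Hochberg adjustment over all genes at 0.05. Differences between single arrays have no test.

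The T cell genes and the marker lists were chosen with earlier results of these data known. All 32 genes are named. From each marker list the 2 brightest genes are named, and from the pathway list the genes past the threshold and the 4 brightest. Where a gene under these rules is missing from the text, it is not reported here. The alternatives were normexp background correction (offset 50), median and quantile scaling, other filters on dim probes, the mean of a gene's probes, outlier spots kept, the title number as a block, and each array left out. Scripts were tested on simulated data. For arrays, their number limits the precision.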

Additional observations from a re-analysis of the deposited data

Results flagged for a closer look

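For 2 genes the difference between number 2 and number 1 went opposite ways in the groups, which drew attention to them. Foxp3 was higher on number 2 by 0.18 log2 units within liposome and stood at -0.54 within saline. Thy1 was higher on number 2 by 0.15 within liposome and stood at -0.48 within saline. Each value rests on 1 array per side, and the difference between the groups was not tested.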

How the results depend on the processing

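No T cell gene was called for liposome against saline under normexp, either scaling, either filter, the mean of probes, outlier spots kept or any left-out array, and 2 were called with the replicate block, Txk (-0.75, adjusted p = 0.0473) and Lef1 (0.77, adjusted p = 0.0459, limma). With that block 17 of the 22 natural killer genes were called lower on liposome, against 0 without it. Over all 12858 genes the block fit called 988 lower and 828 higher. The genes called among all were 1143, and 1720 with normexp, 0 with no filter on dim probes (smallest adjusted p 0.143, and 3005 at an unadjusted p under 0.05, limma), 1816 with the replicate block and 0 to 499 without 1 array. The title numbers share only a number: over 12858 genes the differences by number in the 2 groups correlated at 0.355 (Pearson, across genes, which are not replicates), and 2 pairs cannot test the pairing. The T cell median for liposome against saline was -0.12 and ran from -0.64 to 0.48 without 1 array. These fits have the numbers uneven between groups.

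By number, the genes called were 0, and 113 with normexp, 24 with median scaling and 40 with the filter on all 4 arrays, and the T cell genes called were 0, and 17 and 1 with the first and the last of these; the median within saline was 1.29, and 1.0 with normexp. The cause was not tested. The number fit without 1 array has no residual degree of freedom, and its value is then the other group's own difference. The sign for liposome against saline turned under median scaling for Cd5 (0.034), Ctla4 (0.043) and Trat1 (0.077), under quantile normalization for Ctla4 (0.058) and Trat1 (0.33), and with the mean of probes for Il2rg (-0.064). Without 1 array it turned for 21 genes, from the lowest to the highest value: Cd3d -0.64 to 0.72, Cd3e -0.51 to 0.87, Cd3g -0.79 to 0.47, Cd247 -1.10 to 0.49, Cd2 -1.19 to 0.57, Cd5 -0.58 to 0.48, Cd6 -0.57 to 0.71, Cd8a -0.43 to 0.18, Lck -1.03 to 0.76, Zap70 -1.42 to 0.25, Lat -1.05 to 0.51, Tcf7 -0.58 to 0.77, Bcl11b -0.76 to 0.55, Gata3 -1.06 to 0.39, Cd27 -0.23 to 1.08, Ctla4 -0.68 to 0.61, Icos -0.49 to 0.58, Il2rg -0.090 to 0.17, Trat1 -0.96 to 0.95, Sh2d1a -1.78 to 0.045 and Skap1 -0.69 to 0.27. It did not turn for Cd4, Cd8b, Txk, Lef1, Foxp3, Il7r, Thy1 and Ubash3a.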
